A study of Homo sapiens with 5 samples.

Results

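The genes described here are those of the TGF-beta and BMP signalling pathways, 52 symbols chosen by name: ligands, receptors, SMAD proteins, their inhibitors, latent TGF-beta binding proteins, extracellular antagonists with the follistatin family, and the ID genes that BMP signals are known to induce. Of the 52, 51 had an entry in the expression table of 37181 entries. BMP7 matched no entry and is not analysed here. Where a symbol had several entries, which held for 7 members, the entry with the highest mean over the 5 libraries was taken. The study compared gefitinib-resistant HCC827/GR cells (3 libraries, replicates 1, 2 and 3) with the gefitinib-sensitive parental HCC827 cells, labelled GS (2 libraries, replicates 2 and 3). HCC827 is a lung adenocarcinoma cell line whose EGFR gene carries a deletion in exon 19, and both groups share this genotype. Gefitinib blocks the EGFR kinase. HCC827/GR was derived from the parental cells under rising doses of gefitinib for more than 6 months, so the comparison is between 1 derived line and its parent, and the sources used here do not state whether the resistant cells were kept in gefitinib up to harvest. Nothing in the labels says that replicates came from separate cultures, and the p-values then measure only the spread between these libraries.

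TGF-beta ligands are secreted in a latent complex with LTBP proteins and, once released, bring together type I and type II receptor kinases. The TGF-beta and activin branch phosphorylates SMAD2 and SMAD3, the BMP branch phosphorylates SMAD1, SMAD5 and SMAD9, and both join SMAD4 to act on genes in the nucleus. In epithelial cells TGF-beta is known for growth arrest and for epithelial-mesenchymal transition, while the ID proteins are inhibitors of basic helix-loop-helix transcription factors and are classic BMP targets.

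Values are FPKM, fragments scaled by transcript length and by the mapped total of the library, so levels can be compared between genes per length. Fold changes are differences of log2(FPKM + 1), HCC827/GR minus HCC827, from limma, and a gene is called at a Benjamini-Hochberg adjusted p under 0.05 over all 16189 entries whose mean FPKM reached 0.5. On this scale the change of low genes is understated. Of the 51 members with an entry, 40 were tested and 11 were not. For 36 of the 40 the mean of each group reached the minimum, 2 passed only through HCC827/GR and 2 only through HCC827. The files give no counts, and the sequencing depth is unknown. In bulk RNA, fewer cells that express a gene and less RNA per cell cannot be told apart.

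In HCC827/GR the genes FSTL3, ID3 and FSTL5 rose, and BMP4 and ID1 fell. The other 35 tested members did not pass. The 3 higher calls stand beside 5.26% of all tested entries called higher, and the 2 lower calls beside 5.71% called lower. The 3 include FSTL5, which passed the filter only through HCC827/GR, with a mean of 0.366 FPKM in HCC827. In both directions together, 12.5% of the tested members and 11.0% of all tested entries were called, so the members were called about as often as the rest of the table. The median fold change was 0.09 over the 40 members and 0.00 over all entries, with 21 members above 0 and 19 below. By the thresholds the study used, a fold change of 2 with an unadjusted p under 0.05, 4 members were higher and 2 lower, beside 2.96% and 3.97% of all entries. The libraries of the groups did not overlap for 13 members that were higher and 11 that were lower, beside 22.8% and 23.4% of all entries, and they overlapped for the other 16.

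The promoters of 4 of the called members are shown because these genes moved in opposite directions within the same pathway. Each is the 250 bases before an annotated transcription start in RefSeq on GRCh38.p14, printed along the gene's strand. BMP4 has 3 such promoters, of which the one farthest upstream is shown. Capitals mark matches to GGCGCC, the GC-rich element that SMAD1 and SMAD5 are known to bind, and the sequences with no match stay in lower case.
ID1, chr20:31605039-31605288, plus strand: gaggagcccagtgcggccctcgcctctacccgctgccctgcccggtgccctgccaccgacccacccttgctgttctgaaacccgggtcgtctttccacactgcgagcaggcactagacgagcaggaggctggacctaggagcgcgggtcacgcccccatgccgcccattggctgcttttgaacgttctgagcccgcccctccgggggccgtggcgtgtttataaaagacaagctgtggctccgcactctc
ID3, chr1:23559502-23559751, minus strand: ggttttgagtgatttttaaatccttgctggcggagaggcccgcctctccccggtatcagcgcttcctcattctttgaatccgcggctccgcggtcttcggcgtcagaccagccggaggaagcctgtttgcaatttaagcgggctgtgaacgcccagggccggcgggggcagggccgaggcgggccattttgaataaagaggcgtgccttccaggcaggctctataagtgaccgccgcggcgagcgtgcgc
BMP4, chr14:53955051-53955300, minus strand: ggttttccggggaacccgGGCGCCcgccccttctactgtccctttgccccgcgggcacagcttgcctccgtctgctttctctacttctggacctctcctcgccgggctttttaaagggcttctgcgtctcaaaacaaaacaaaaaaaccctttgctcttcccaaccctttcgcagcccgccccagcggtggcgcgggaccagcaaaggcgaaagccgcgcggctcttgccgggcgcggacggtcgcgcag
FSTL3, chr19:676142-676391, plus strand: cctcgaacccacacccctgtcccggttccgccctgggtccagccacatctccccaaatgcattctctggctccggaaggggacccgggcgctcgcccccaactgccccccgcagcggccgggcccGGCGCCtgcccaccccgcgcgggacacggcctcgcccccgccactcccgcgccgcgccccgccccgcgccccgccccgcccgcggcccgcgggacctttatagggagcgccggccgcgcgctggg
The element GGCGCC, which reads the same on both strands, began 125 bases before the start of FSTL3 and 232 bases before the BMP4 start shown. It was in 1 of the 3 BMP4 promoters, and another of the 3 held CAGACA. It was not among these 250 bases of ID1, which fell, or of ID3 and FSTL5, which rose. Bases outside these 250 were not searched, so elements elsewhere would be missed. GC content was 66% in the ID1 promoter, 62% in that of ID3, 63.6% in that of BMP4 and 80% in that of FSTL3. Promoters in RefSeq were found for 48 members, 90 promoters in all, with several promoters of 1 gene counted separately. GGCGCC was in 23 of the 90, from 20 members, and in 16.4% of all 35116 promoters. The difference was not tested. The SMAD box repeat CAGACA, searched on both strands, was in 17 of the 90 and in 13.6% of all, and the SMAD palindrome GTCTAGAC was in 1 of the 90 and in 0.182% of all. The AP-1 site TGACTCA, also searched on both strands, was in 3 of the 90 and in 4.2% of all. None of these 4 motifs overlaps another in the printed sequences, and a match is only a run of letters, not a measured binding site.

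Among the ID genes, ID1 fell and ID3 rose. ID1 (chr20:31605283-31606515, GENCODE 29 annotation on GRCh38, as for the gene positions that follow) was at 16.5, 21.8 and 15.6 FPKM in HCC827/GR, against 53.5 and 49.8 FPKM in HCC827. Every resistant library lay below both parental ones, and the mean was 2.87-fold lower, 18.0 ± 3.37 FPKM (SD, n = 3) against 51.6 ± 2.60 FPKM (SD, n = 2). The log2 fold change was -1.49 with a standard error of 0.17 (limma, adjusted p = 0.0124). ID3 (chr1:23557918-23559794) was at 20.6, 18.6 and 19.9 FPKM in HCC827/GR and at 7.22 and 8.39 FPKM in HCC827. Here every resistant library lay above both parental ones, and the mean was 2.53-fold higher, with a log2 fold change of 1.24 and a standard error of 0.11 (limma, adjusted p = 0.00753).

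The levels of ID1 and ID3 thus came close to each other in the resistant cells. The ratio of ID1 to ID3 within a library, a quantity chosen after the values were seen, was 0.798, 1.17 and 0.784 in HCC827/GR and 7.41 and 5.94 in HCC827. ID1 made up 31.7%, 47.3% and 40.7% of the summed FPKM of the 4 ID genes in HCC827/GR, against 81.6% and 78.5% in HCC827. That sum was 52.0, 46.2 and 38.3 FPKM in HCC827/GR and 65.6 and 63.4 FPKM in HCC827, lower in every resistant library. ID2 was at 13.6, 4.44 and 2.07 FPKM in HCC827/GR and at 4.22 and 4.99 FPKM in HCC827. Its resistant libraries spanned the parental ones on both sides, and it was not called (adjusted p = 0.909). ID4 was low, at 1.30, 1.28 and 0.733 FPKM in HCC827/GR against 0.656 and 0.232 FPKM in HCC827, and was not called (adjusted p = 0.195). The call of ID1 was lost when HCC827 replicate 2 (adjusted p = 0.0845), HCC827 replicate 3 (0.0712) or HCC827/GR replicate 1 (0.0562) was left out, with log2 fold changes from -1.63 to -1.40 over the 5 fits that each left out 1 library. ID3 kept its call in all 5 of these fits.

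**Figure D1:**
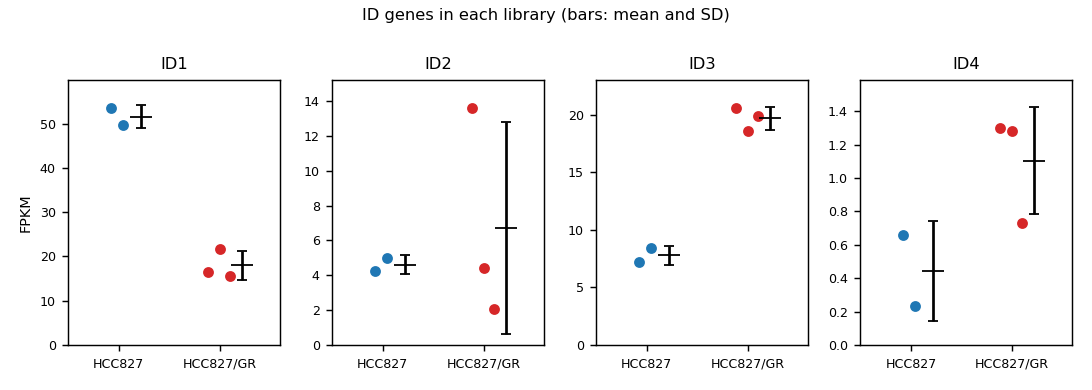
FPKM (vertical axis, linear from 0, own scale per panel) of ID1, ID2, ID3 and ID4 in each library of HCC827 (blue, n = 2) and HCC827/GR (red, n = 3), with the mean and SD in black. ID1 is lower and ID3 higher in every HCC827/GR library, and the 3 ID2 values of HCC827/GR run from 2.07 to 13.6 FPKM.

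Among the ligands, BMP4 fell and the TGF-beta genes were not called. BMP4 (chr14:53949736-53958761), a BMP ligand that signals through SMAD1, SMAD5 and SMAD9, was at 2.22, 1.79 and 1.92 FPKM in HCC827/GR and at 11.3 and 8.57 FPKM in HCC827. No resistant library came near a parental one, the mean was 5.03-fold lower, and the log2 fold change was -1.87 with a standard error of 0.15 (limma, adjusted p = 0.00622). Among the 4 tested ligands it had the only call, beside 5.71% of all tested entries called lower. The call of BMP4 was kept whichever HCC827/GR library was left out. Its log2 fold changes ran from -2.05 to -1.69 over the fits that each left out 1 of the 5 libraries. BMP2 was too low to be tested, at 0.200, 0.286 and 0.233 FPKM in HCC827/GR and 0.441 and 0.451 FPKM in HCC827. BMP4 made up between 79.9% and 95.5% of the summed FPKM of BMP2, BMP4 and BMP6 in the 5 libraries.

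TGFB1 was the ligand with the highest mean level in both groups. It was at 12, 12.5 and 12.6 FPKM in HCC827/GR and at 10.8 and 11.8 FPKM in HCC827, and the log2 fold change of 0.12 with a standard error of 0.089 was not called (limma, adjusted p = 0.465). TGFB2 was at 12.1, 11.8 and 11.0 FPKM in HCC827/GR against 8.83 and 7.48 FPKM in HCC827. Its groups did not overlap, and the log2 fold change of 0.47 with a standard error of 0.11 did not pass the threshold (limma, adjusted p = 0.0636). TGFB3 reached no more than 0.533 FPKM in any library, the highest single value of the 11 untested members. The stress-induced ligand GDF15 was at 1.11, 1.58 and 1.43 FPKM in HCC827/GR and at 0.0946 and 2.71 FPKM in HCC827, so the parental libraries spanned the resistant ones (adjusted p = 0.832). The activin subunit genes INHBA and INHBB and the ligand BMP6 were also too low to be tested, none above 0.303 FPKM.

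The genes named as latent TGF-beta binding proteins had no call in limma at adjusted p under 0.05 among 4 tested. At an unadjusted p under 0.05, 1 was higher and 1 lower, beside 2168 higher and 2242 lower of all 16189 tested entries. No alternative called any of these 4 genes. The most abundant of them in the parental cells, LTBP3, was at 5.41, 5.30 and 3.98 FPKM in HCC827/GR and at 9.77 and 7.38 FPKM in HCC827. The log2 fold change of -0.70 had a standard error of 0.18 (limma, adjusted p = 0.0814). LTBP2 was at 3.62, 3.84 and 2.82 FPKM in HCC827/GR and at 2.0 and 2.26 FPKM in HCC827, with a log2 fold change of 0.49 and a standard error of 0.14 (limma, adjusted p = 0.102). Neither gene's groups overlapped, and they lay on opposite sides. The ratio of LTBP2 to LTBP3 within a library, chosen after the values were seen, was 0.669, 0.724 and 0.707 in HCC827/GR and 0.205 and 0.307 in HCC827. LTBP1 and LTBP4 stayed at or below 1.02 FPKM in all 5 libraries and were not called (adjusted p = 0.681 and 0.552).

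The follistatin family, secreted proteins of which FST and FSTL3 bind activins, held 2 of the 3 higher calls. Its 3 tested genes are too few to compare with the 5.26% of all tested entries called higher. Of the 2 called, FSTL5 passed the filter only through HCC827/GR, and the call of FSTL3 was not kept in every fit. FSTL3 (chr19:676365-683399) was at 23.1, 21.6 and 15.5 FPKM in HCC827/GR and at 5.25 and 6.64 FPKM in HCC827. All resistant libraries lay above the parental ones, and the mean was 3.38-fold higher, 20.1 ± 4.03 FPKM (SD, n = 3) against 5.94 ± 0.985 FPKM (SD, n = 2). The log2 fold change was 1.59 with a standard error of 0.21 (limma, adjusted p = 0.0173). Its call was lost without HCC827 replicate 2 (adjusted p = 0.103), HCC827 replicate 3 (0.0749), HCC827/GR replicate 1 (0.0620) or HCC827/GR replicate 2 (0.0634), with log2 fold changes from 1.44 to 1.76 in these fits and the one without HCC827/GR replicate 3.

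FSTL5 (chr4:161383897-162164035), a follistatin-like gene, was at 2.09, 2.15 and 2.16 FPKM in HCC827/GR and at 0.378 and 0.353 FPKM in HCC827. The resistant libraries were close to each other and far above the parental ones, and the mean was 5.84-fold higher. The log2 fold change was 1.20 with a standard error of 0.099 (limma, adjusted p = 0.00687), and 2.26 with a pseudocount of 0.1 in place of 1. FSTL5 passed the filter through HCC827/GR, and the study had listed it among genes selected on these same libraries, so it is not independent evidence. FSTL1, a secreted glycoprotein of the same family, was at 11.0, 4.45 and 9.12 FPKM in HCC827/GR and at 2.45 and 1.10 FPKM in HCC827. The groups did not overlap and the mean was 4.61-fold higher, but the spread was wide and the log2 fold change of 1.69 with a standard error of 0.42 did not pass the adjusted threshold (limma, adjusted p = 0.0737, from 0.0530 to 0.428 over the alternatives).

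The remaining 5 antagonists among the members were low throughout. BMPER, NOG, CHRD, GREM1 and FST, which bind BMP ligands or, for FST, activin, were not tested, and the highest value among them was 0.317 FPKM, of NOG. NOG was listed at 0 in both HCC827 libraries and in HCC827/GR replicate 2. BMPER was at 0.294, 0.179 and 0.298 FPKM in HCC827/GR and at 0.0127 and 0.00869 FPKM in HCC827. The level of BMPER was higher in every resistant library, at a level below the minimum for a test.

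**Figure D2:**
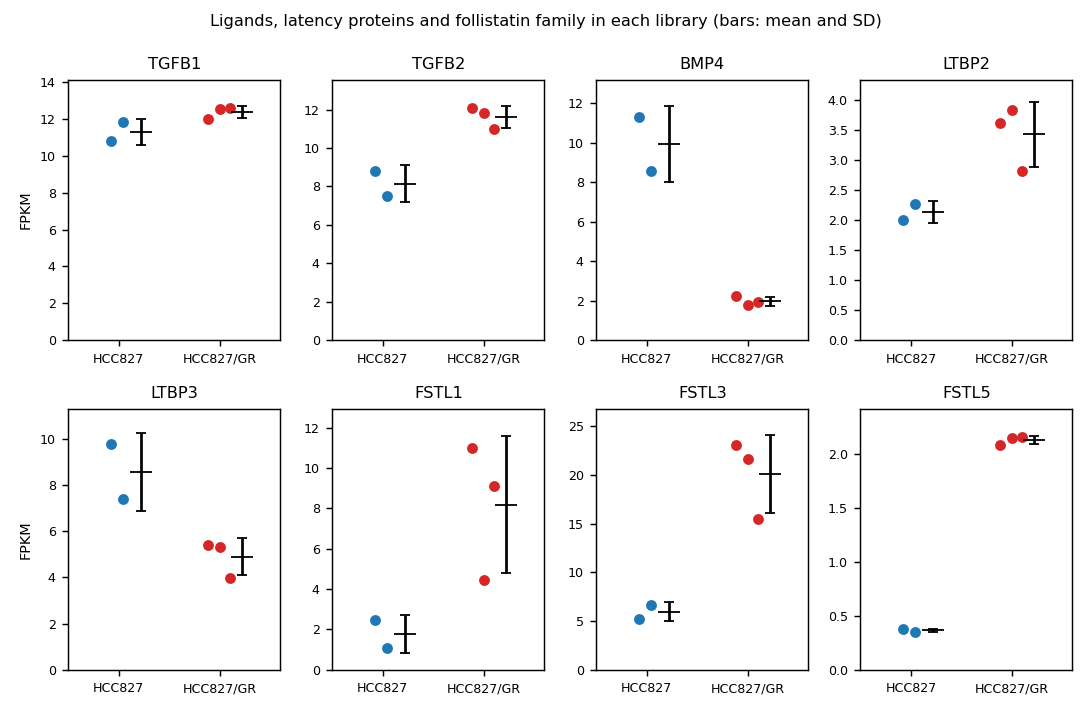
FPKM (vertical axis, linear from 0, own scale per panel) of 3 ligands, 2 latent TGF-beta binding proteins and 3 follistatin family genes in each library of HCC827 (blue, n = 2) and HCC827/GR (red, n = 3), with the mean and SD in black. BMP4 is lower and FSTL3 and FSTL5 higher in every HCC827/GR library, while TGFB1 stays between 10.8 and 12.6 FPKM.

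All 11 receptor and co-receptor genes were tested, and limma called 0 of them. At an unadjusted p under 0.05, 2 were higher and 2 lower, beside 2168 and 2242 of all 16189 tested entries. The Ballgown-style model also called 0 receptors, but it called only 6 higher and 9 lower of all entries. The fit with the replicate block called 0 of all entries, so neither fit is informative about the receptors. TGFBR2, the type II receptor that binds TGF-beta, was the most abundant receptor, at 10.3, 10.7 and 14.2 FPKM in HCC827/GR and at 19.3 and 16.5 FPKM in HCC827. The log2 fold change was -0.58 with a standard error of 0.17 (limma, adjusted p = 0.111). TGFBR1, the type I receptor it activates, was at 7.05, 7.52 and 7.46 FPKM in HCC827/GR and at 3.25 and 5.54 FPKM in HCC827, with a log2 fold change of 0.66 and a standard error of 0.20 (limma, adjusted p = 0.119). The groups did not overlap for either receptor, and they lay on opposite sides. Without HCC827 replicate 3, TGFBR1 passed, with a log2 fold change of 0.97 (limma, adjusted p = 0.0416), and without HCC827 replicate 2 the log2 fold change was 0.35 (adjusted p = 0.167). The ratio of TGFBR2 to TGFBR1 within a library, chosen after the values were seen, was 1.47, 1.42 and 1.91 in HCC827/GR and 5.94 and 2.98 in HCC827.

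ACVR1B, the type I receptor for activins, was at 2.66, 3.20 and 1.88 FPKM in HCC827/GR and at 5.09 and 5.26 FPKM in HCC827. All resistant libraries lay below the parental ones, and the log2 fold change of -0.80 with a standard error of 0.18 missed the threshold (limma, adjusted p = 0.0608). It passed after quantile normalization (adjusted p = 0.0477). The BMP type I receptor BMPR1A was at 4.05, 5.07 and 4.47 FPKM in HCC827/GR and at 3.66 and 3.13 FPKM in HCC827, and the type II receptor BMPR2 was at 5.94, 5.58 and 9.62 FPKM against 5.21 and 4.58 FPKM. Neither was called (adjusted p = 0.177 and 0.344), although their groups did not overlap. The remaining 6 receptor genes had overlapping groups. Their log2 fold changes were 0.41 for ACVR2B, 0.19 for ACVR2A, 0.15 for ACVR1, 0.09 for the co-receptor TGFBR3, -0.10 for the co-receptor ENG and -0.11 for BMPR1B, and their adjusted p ran from 0.447 to 0.816. The ACVR1 entry also takes in a neighbouring transcript, AC019186.1.

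Of the 6 SMADs that carry the signal, 5 were tested and limma called 0. At an unadjusted p under 0.05, 0 were higher and 2 lower, beside 2168 and 2242 of all 16189 tested entries. The Ballgown-style model and the replicate block called 0 as well, which is uninformative because they called few or 0 of all entries. SMAD5, of the BMP branch, had the highest mean in HCC827/GR but not in HCC827, where SMAD3 was above it. SMAD5 was at 8.39, 10.5 and 6.47 FPKM in HCC827/GR and at 5.64 and 5.73 FPKM in HCC827. The log2 fold change of 0.48 with a standard error of 0.20 was not called (limma, adjusted p = 0.216). SMAD3, of the TGF-beta branch, was at 6.55, 5.95 and 6.56 FPKM in HCC827/GR and at 6.65 and 7.12 FPKM in HCC827, with a log2 fold change of -0.10 and a standard error of 0.094 (limma, adjusted p = 0.553). The highest resistant value of SMAD3 lay just below the lowest parental one. SMAD2, its partner in that branch, was at 1.99, 2.13 and 1.91 FPKM against 3.17 and 2.52 FPKM (adjusted p = 0.141). The common partner SMAD4 was at 2.17, 2.37 and 2.45 FPKM against 3.08 and 3.26 FPKM (adjusted p = 0.104), in an entry that also joins ELAC1 and AC091551.1. The groups of SMAD2 and SMAD4 did not overlap and were lower in HCC827/GR. SMAD1 was near 1 FPKM in both groups (adjusted p = 0.790), and SMAD9 was not tested, at up to 0.248 FPKM.

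**Figure D3:**
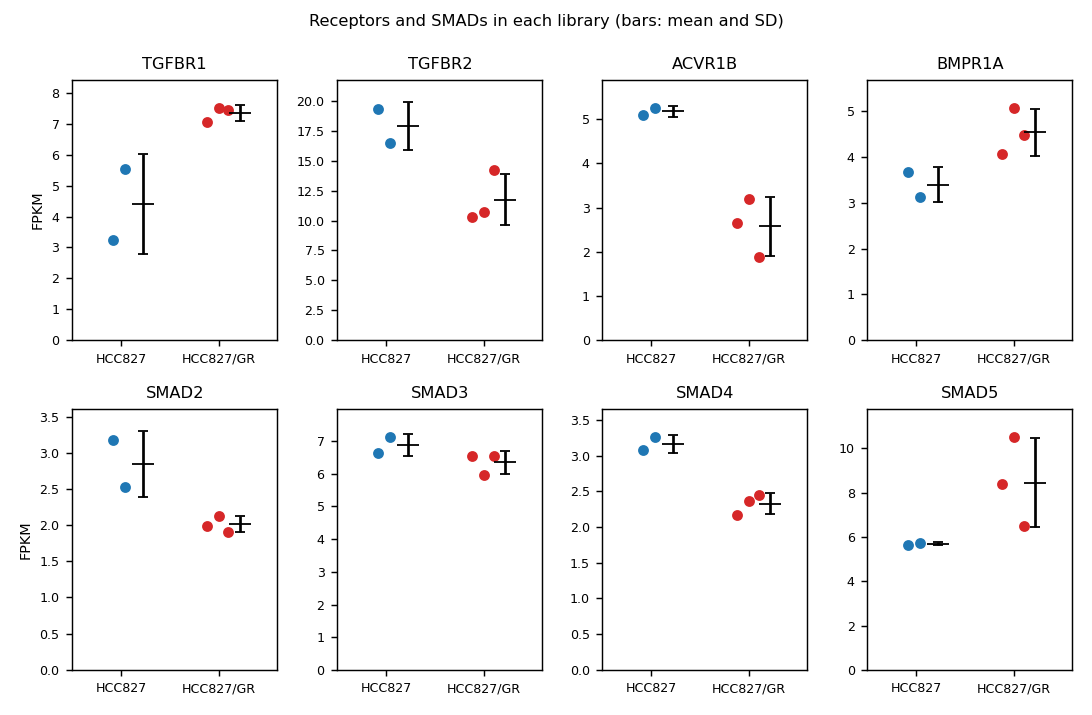
FPKM (vertical axis, linear from 0, own scale per panel) of 4 receptors and 4 SMADs in each library of HCC827 (blue, n = 2) and HCC827/GR (red, n = 3), with the mean and SD in black. TGFBR1 lies higher and TGFBR2 and ACVR1B lower in every HCC827/GR library, and no gene shown passed adjusted p under 0.05.

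All 9 inhibitors inside the cell or at its membrane were tested, and limma called 0. At an unadjusted p under 0.05, 0 were higher and 1 lower, beside 2168 and 2242 of all 16189 tested entries. The Ballgown-style model and the replicate block called 0, again uninformative because they called few or 0 of all entries. The one at an unadjusted p under 0.05 was SMAD6, which blocks the BMP branch and is itself a BMP target, at 1.26, 1.11 and 0.722 FPKM in HCC827/GR and at 1.90 and 2.21 FPKM in HCC827. Its groups did not overlap, and the log2 fold change of -0.60 with a standard error of 0.16 missed the adjusted threshold (limma, adjusted p = 0.0879). The ubiquitin ligase SMURF2 was the most abundant inhibitor, at 18.0, 18.7 and 15.1 FPKM in HCC827/GR and at 17.2 and 18.0 FPKM in HCC827 (adjusted p = 0.903). The decoy receptor BAMBI was at 3.48, 5.59 and 7.96 FPKM in HCC827/GR and at 8.19 and 8.49 FPKM in HCC827, lower in each resistant library but widely spread among them (adjusted p = 0.334).

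PMEPA1, a TGF-beta target that restrains SMAD2 and SMAD3, was at 0.259, 0.131 and 3.32 FPKM in HCC827/GR and at 0.268 and 2.03 FPKM in HCC827. In each group replicate 3 was far above the others, and the gene was not called (adjusted p = 0.949). The SMAD7 entry used is an assembled locus with no Ensembl transcript, and its log2 fold change was -0.15 (adjusted p = 0.674). The sign turned to 0.22 in the entry that holds the Ensembl transcripts of SMAD7 (adjusted p = 0.619), so no direction is given for SMAD7. SMURF1, SKI, SKIL and the repressor TGIF1 had log2 fold changes between -0.12 and 0.16 and were not called (adjusted p from 0.441 to 0.749).

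**Figure D4:**
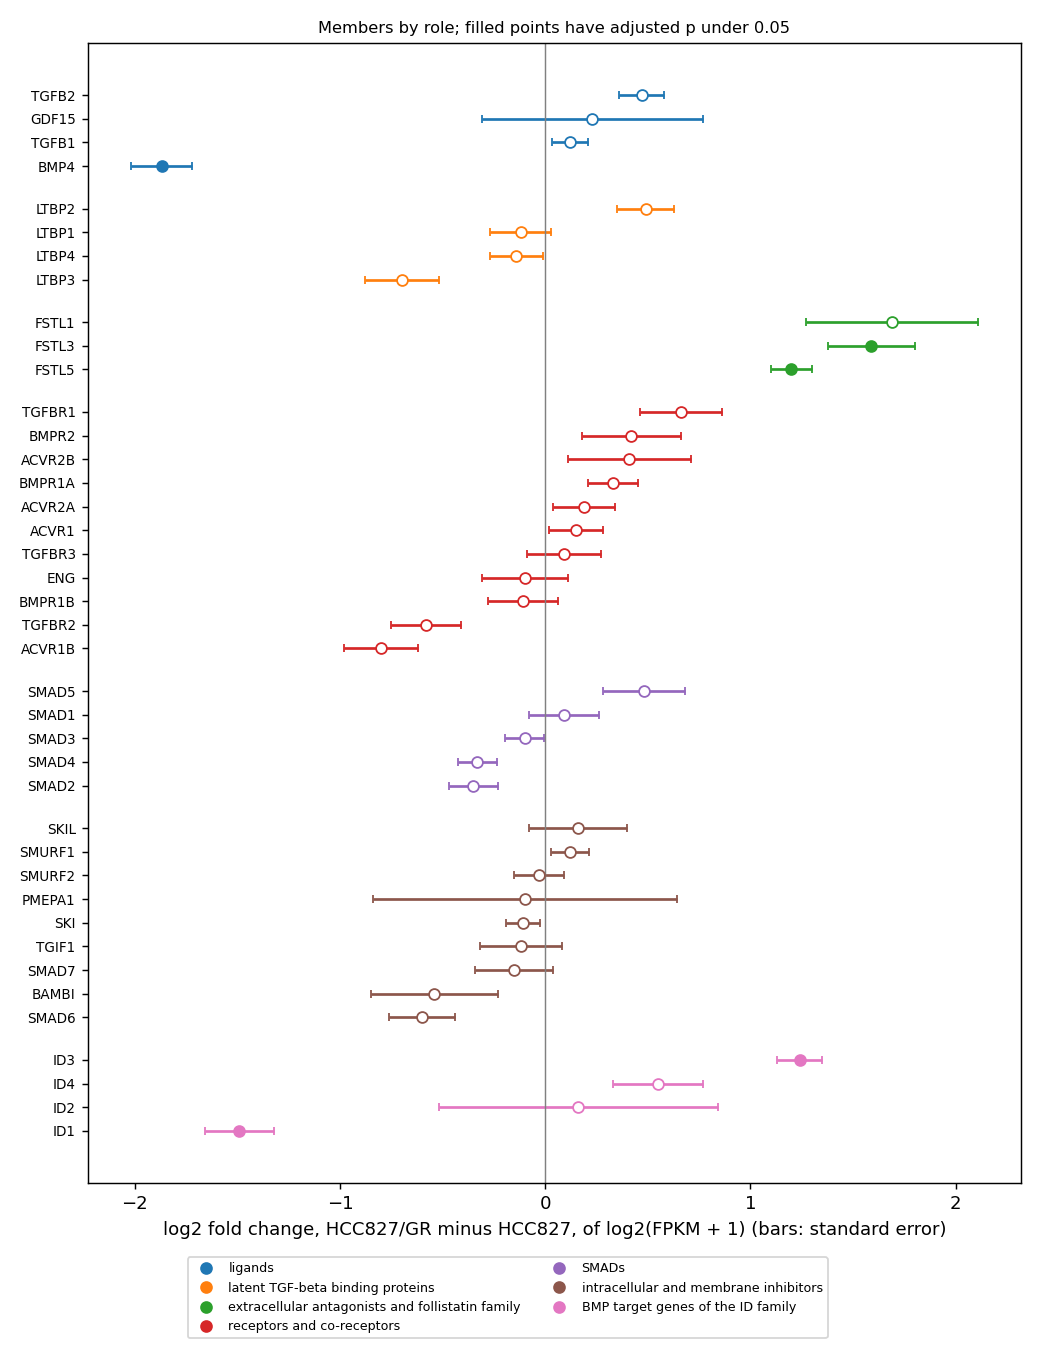
Log2 fold change of log2(FPKM + 1), HCC827/GR minus HCC827 (horizontal axis), with its standard error for the 40 tested members (vertical axis), coloured by role, filled where the adjusted p is under 0.05. The 5 filled points are BMP4 and ID1 below 0 and ID3, FSTL3 and FSTL5 above 0, and the receptors, SMADs and inhibitors have none.

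Other genes of the pathway were counted from lists of 101 symbols, of which 83 had an entry and 47 were tested. Of these, 6 were higher and 3 lower, beside 5.26% and 5.71% of all tested entries, with a median log2 fold change of 0.12. By a fold change of 2 with an unadjusted p under 0.05, 6 were higher and 1 lower, beside 2.96% and 3.97% of all entries. THBS1, a matrix glycoprotein that can activate latent TGF-beta, was at 391, 267 and 425 FPKM in HCC827/GR and at 33.0 and 38.6 FPKM in HCC827, with a log2 fold change of 3.27 and a standard error of 0.24 (limma, adjusted p = 0.00521). Every resistant library was well above both parental ones, and this fold change was the largest among the 47 genes.

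ITGB8, a subunit of an integrin that activates latent TGF-beta, rose from 5.94 and 5.24 FPKM in HCC827 to 14.3, 20.0 and 12.3 FPKM in HCC827/GR (limma, adjusted p = 0.0309). TGFBRAP1, a TGF-beta receptor-associated protein, rose from 4.33 and 5.74 FPKM to 13.7, 14.0 and 15.6 FPKM (adjusted p = 0.0108). NEO1, a receptor that works with repulsive guidance molecules as BMP co-receptors, rose from 4.61 and 4.16 FPKM to 10.0, 11.0 and 9.91 FPKM (adjusted p = 0.00862). These 3 genes thus lay above both parental libraries in every resistant library. The matricellular gene CYR61 had a log2 fold change of 1.14 (adjusted p = 0.0229), and RUNX2, a transcription factor induced by BMP signals in bone, had one of 0.80 (adjusted p = 0.0379).

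The 3 lower genes were also on the list of TGF-beta targets. The matrix gene FN1 had a log2 fold change of -1.59 (adjusted p = 0.00794), and TGFBI, a secreted matrix protein named for its induction by TGF-beta, one of -0.91 (adjusted p = 0.0309). CDKN1A, the cell cycle inhibitor p21, was at 0.461, 0.556 and 0.834 FPKM in HCC827/GR and at 1.87 and 2.0 FPKM in HCC827, with a log2 fold change of -0.87 (limma, adjusted p = 0.0308). Of the 13 tested TGF-beta targets, 1 rose and 3 fell, beside 5.26% and 5.71% of all tested entries. THBS1, also a TGF-beta target, was counted among the activators of latent TGF-beta. By a fold change of 2 with an unadjusted p under 0.05, 2 of the 13 were higher and 1 lower. The shares over all tested entries were 2.96% and 3.97%. Of the 13, 8 had fold changes above 0 and 5 below, beside 8125 and 8064 of all 16189 tested entries. CTGF, a matricellular TGF-beta target named after its values were seen, was at 6.19, 7.04 and 8.94 FPKM in HCC827/GR and at 2.86 and 0.685 FPKM in HCC827. Its groups did not overlap, and the log2 fold change of 1.70 with a standard error of 0.39 missed the adjusted threshold (limma, adjusted p = 0.0613). It passed without HCC827 replicate 2, with a log2 fold change of 2.30 (adjusted p = 0.0447), and not when any other library was left out (adjusted p up to 0.153). Of the 5 tested BMP targets outside the members, RUNX2 alone was called, beside 5.26% of all tested entries called higher. The call of RUNX2 was lost when any 1 of the 5 libraries was left out (adjusted p up to 0.155). The calls of CDKN1A (up to 0.118) and TGFBI (up to 0.133) were lost without any library but HCC827/GR replicate 3, and that of CYR61 (up to 0.116) without any but HCC827/GR replicate 1. ITGB8 lost its call without HCC827 replicate 2, HCC827 replicate 3 or HCC827/GR replicate 1 (up to 0.142), and FN1 without HCC827 replicate 2 (adjusted p = 0.0576). The calls of THBS1, TGFBRAP1 and NEO1 were kept in all 5 such fits.

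**Figure D5:**
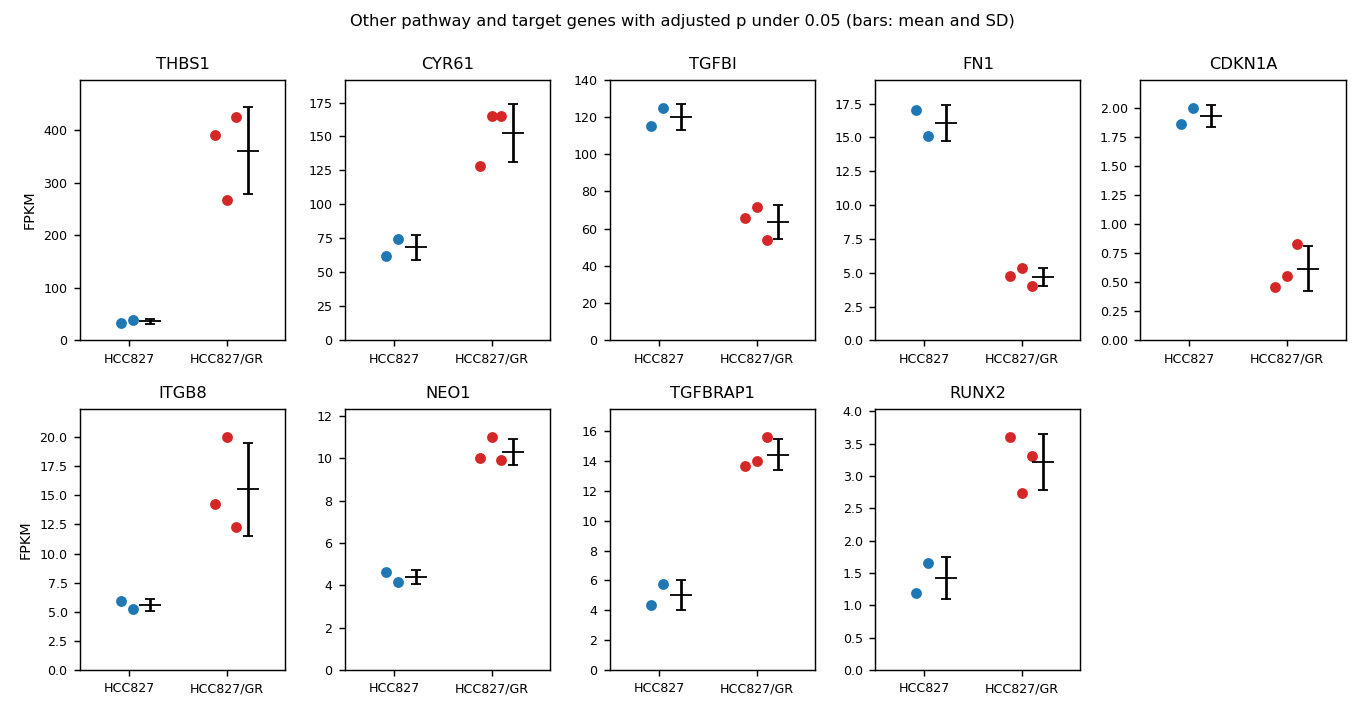
FPKM (vertical axis, linear from 0, own scale per panel) of the 9 other pathway genes with adjusted p under 0.05 in each library of HCC827 (blue, n = 2) and HCC827/GR (red, n = 3), with the mean and SD in black. The 6 higher genes include THBS1, and TGFBI, FN1 and CDKN1A are lower in every HCC827/GR library.

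Markers of cell types were also compared, and the summed level of the epithelial ones was lower in HCC827/GR. Of 10 epithelial markers of lung adenocarcinoma, 8 had an entry, and their summed level was 443 to 574 FPKM in HCC827/GR and 1070 to 1190 FPKM in HCC827. Most of it came from the keratins KRT18, KRT8 and KRT19. KRT19 had a log2 fold change of -1.52 (limma, adjusted p = 0.00996) and KRT18 one of -0.93 (adjusted p = 0.0413). KRT8, at -0.75, was not called (adjusted p = 0.101). EPCAM fell by 3.04 on the log2 scale (limma, adjusted p = 0.00349), CDH1 by 1.93 (adjusted p = 0.0125) and NKX2-1, in an entry that also joins SFTA3 and AL132857.1, had a log2 fold change of -1.64 (adjusted p = 0.0115), and SFTPB and SFTPC stayed below 0.5 FPKM in all 5 libraries. Fibroblast markers summed to 2.72 to 3.05 FPKM in HCC827/GR and to 3.32 to 3.43 FPKM in HCC827 over 7 genes. Most of it came from the PDGFRA entry, with means of 1.89 and 2.47 FPKM. That entry also joins FIP1L1, so its level cannot be given to PDGFRA. DCN was at no more than 0.0259 FPKM and LUM at no more than 0.257 FPKM. PDGFRB was higher in every resistant library, at 0.278, 0.184 and 0.184 FPKM against 0.00777 and 0.0147 FPKM, while LUM and COL3A1 were lower in each. Leukocyte markers summed to 33.0 to 38.3 FPKM against 31.1 to 39.2 FPKM over 4 genes with an entry, with PTPRC and MS4A1 at or near 0. Nearly all of it came from the entry of CD68, which also joins EIF4A1, SENP3, TNFSF12, TNFSF13 and AC016876.2, so its level cannot be given to CD68. Of the 4 endothelial markers, VWF, CDH5 and KDR were at or near 0 in both groups, while the PECAM1 entry used was listed at 0 in HCC827/GR and at 4.34 and 3.32 FPKM in HCC827. That entry is an assembled locus with no Ensembl transcript, so its level is not taken as that of PECAM1. The part of these shifts in the levels of the TGF-beta and BMP genes was not tested. An exact permutation test of a single gene with 3 libraries against 2 cannot give a p below 0.1, so the calls rest on the spread limma pools over all entries.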

How the data were processed

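RNA was measured in 3 HCC827/GR and 2 HCC827 libraries. The authors deposited FPKM values per assembled gene. Their tools were cutadapt and FastQC for trimming and checking reads, TopHat2 with Bowtie2 for mapping, and StringTie for assembly and values, per the study's methods and the submitters' processing notes, which name hg18 and no tool versions. The labels describe a small-RNA single-end library and the methods a ribosomal RNA-depleted paired-end one, and which applies was not settled. Ensembl identifiers matched GENCODE 29 (135164 of 135299), so gene positions printed are those of the GENCODE 29 annotation on GRCh38, not of the authors' build. The table holds 1 further FPKM column that matched no sample and was not used.

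Values were tested with limma 3.58.1 in R 4.3.3 (lmFit, eBayes with trend, two-sided) on log2(FPKM + 1), over entries whose mean FPKM reached 0.5, with Benjamini-Hochberg adjustment over all of them. The members and lists were chosen with earlier results of these data known. Every member is accounted for. A gene of the other pathway lists is not reported here and was left out of their counts. Of the other pathway genes, those with adjusted p under 0.05 are named, at most 12, and values per library are given for members that were called or changed 2-fold, and for the most abundant member of each role. The remaining members given per library, and the within-library ratios and sums, were chosen after values were seen. The 14 alternatives were other pseudocounts, filters, scalings and models, summed entries, a replicate block and each library left out. The replicate numbers in the labels are shared by number only, and the p-values cover the spread between these libraries.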

Additional observations from a re-analysis of the deposited data

How the results depend on the processing

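The 5 called members kept their direction in all 14 alternatives. BMP4, ID3 and FSTL5 were called in 12 of the 14, ID1 in 9 and FSTL3 in 8. The Ballgown-style model, which has a library-size covariate, and the replicate block leave few residual degrees of freedom. Under the Ballgown-style model the members called higher went from 3 to 0 and those called lower from 2 to 0 (5 and 5 at an unadjusted p under 0.05), all entries to 6 higher and 9 lower, and the other pathway genes from 6 and 3 to 0 and 0 (5 and 6 unadjusted). With the replicate block, which pairs replicates 2 and 3, the counts were 0 and 0 for members (6 and 5 unadjusted), 0 and 0 for all entries and 0 and 0 for the other pathway genes (10 and 5 unadjusted). Deviations of same-numbered libraries correlated at 0.0328 for number 2 and 0.0147 for number 3, so the numbers were not taken to pair the libraries. With no filter on low values, 504 of all entries were called higher in place of 851, and 3 other pathway genes in place of 6. Leaving out 1 HCC827/GR library gave 2 to 3 members called higher and 1 to 2 lower, with 0 members gained. Of all entries, 202 to 485 were then higher and 287 to 477 lower, and of the other pathway genes 4 to 5 higher and 1 to 3 lower. The latter counts can hold genes not called in the main fit, such as TWSG1, with a lowest limma adjusted p of 0.041 when 1 library was left out. Where 1 HCC827 library remained, it was assumed to vary like the HCC827/GR libraries. Without HCC827 replicate 2 limma called 0 other pathway genes lower, with 5 at an unadjusted p under 0.05. Other scalings moved the median fold change of all entries by at most 0.02. The files give no depth, so the error of low values such as those of the 11 untested members is not known.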
